A study of Mus musculus with 45 samples.

Results

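The 10 genes described here carry the leukotriene and prostaglandin pathways: Ltb4r1, Lpcat2, Alox5, Alox5ap, Lta4h, Ptgs2, Ptger2, Ptger4, Hpgd and Hpgds. They were taken by symbol from 27179 genes in the count table, and all 10 were found. They were chosen by pathway and by their CPM in earlier results of these data, in which Ltb4r1 and Lpcat2 differed greatly between male and female regulatory T cells (Treg) of visceral adipose tissue (VAT). Values in those 4 Treg libraries are therefore described without a test.

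The study compared VAT Treg between the sexes, with their surroundings, in 45 RNA-seq libraries of C57BL/6 mice in 22 groups. Male and female Foxp3RFP mice, whose Treg carry a red fluorescent Foxp3 reporter, gave reporter-positive Treg and reporter-negative CD4 T cells of VAT, and Treg of spleen, for which the gate is not stated. Male Foxp3cre mice, in which cre is expressed under Foxp3, and male Blimp1fl/fl Foxp3cre mice, which add a floxed Blimp1 gene, gave YFP-positive Treg of VAT and spleen. Males and females of no stated genotype gave group 2 innate lymphoid cells (ILC2) of VAT (lineage-negative, CD25+ ST2+ KLRG1+), CD45- Ter119- stromal cells with or without GP38 (podoplanin), adipocytes freed of the stromal vascular fraction, whole VAT (periovarian in females, epididymal in males) and inguinal subcutaneous fat. Mice were 25 weeks old, except that no age is given for the Foxp3RFP spleen Treg, and a library pooled 3 to 5 mice where a number is stated. Groups held 2 libraries, except 3 in each sex of whole VAT and 1 for Foxp3cre VAT Treg, whose source text names spleen although its title and tissue label name VAT. The stated Treg gates rest on Foxp3 reporters, and no treatment is named for any group, although whole VAT titles carry the letters ND, which the labels do not spell out.

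Between 4956080 and 61913009 reads were assigned to genes per library, and levels are given as CPM, a gene's reads scaled to a common library total, unless stated. Stroma and ILC2 libraries were made with another kit than the rest, so levels there are set beside the other cells without a test. Marker lists matched most labels: the summed adipocyte markers reached 15180 to 23040 CPM in adipocytes, and the fibroblast markers 47330 to 50920 CPM in GP38+ stroma. Spleen Treg of Foxp3RFP mice also held B cell markers at 4882 to 5535 CPM, beside T cell markers at 6217 to 6950 CPM. In Foxp3cre spleen Treg these were at 2653 to 6229 and 4555 to 5821 CPM, and in Blimp1fl/fl Foxp3cre at 1360 to 1374 and 5316 to 6089 CPM. The CD45- GP38- stroma, however, held B cell markers at 2064 to 2970 CPM and T cell markers at 285.7 to 1014 CPM. It also held adipocyte markers at 1975 to 5096 CPM. Prdm1, which encodes Blimp1, was not lower in the libraries labelled Blimp1fl/fl Foxp3cre (VAT 121.1 and 147.8 CPM, spleen 60.76 and 41.2 CPM) than in Foxp3cre libraries (VAT 73.09 CPM, spleen 24.99 and 16.34 CPM). Reads from exons that the deletion would leave in place enter this count, and the label is therefore not checked by it.

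Leukotriene B4 is made from arachidonic acid in steps: 5-lipoxygenase (Alox5), helped by its activating protein (Alox5ap), forms leukotriene A4, and leukotriene A4 hydrolase (Lta4h) converts it to leukotriene B4, which attracts leukocytes through its high-affinity receptor Ltb4r1 (BLT1). Lpcat2 is an acyltransferase that puts fatty acids back onto lysophospholipids and makes platelet-activating factor. Cyclooxygenase 2 (Ptgs2) starts the prostaglandin branch, the synthase Hpgds makes prostaglandin D2, Ptger2 (EP2) and Ptger4 (EP4) are receptors for prostaglandin E2 that raise cyclic AMP, and Hpgd inactivates prostaglandin E2. In mice, Hpgd is known to act in Treg of visceral fat.

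The promoters of 4 members are shown because their levels separated the T cell groups most: Ltb4r1 and Lpcat2 were high in the same T cell groups, Ptger2 was low there, and Ptgs2 was nearly at 0 in spleen Treg. Each is the 250 bases before the start that the RefSeq promoter table uses on GRCm38.p6, on the plus strand, at chr14:55765712-55765961 for Ltb4r1, chr8:92855083-92855332 for Lpcat2, chr14:44987861-44988110 for Ptger2 and chr1:150099781-150100030 for Ptgs2. The Lpcat2 window runs past the outermost annotated start of that gene, given with its values. Capitals mark the matches found among 9 motifs searched on both strands.
Ltb4r1: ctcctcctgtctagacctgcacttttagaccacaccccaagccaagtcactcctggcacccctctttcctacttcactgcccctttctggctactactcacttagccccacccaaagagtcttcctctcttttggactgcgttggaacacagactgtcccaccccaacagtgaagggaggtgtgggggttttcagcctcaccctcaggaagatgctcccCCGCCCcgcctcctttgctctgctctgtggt
Lpcat2: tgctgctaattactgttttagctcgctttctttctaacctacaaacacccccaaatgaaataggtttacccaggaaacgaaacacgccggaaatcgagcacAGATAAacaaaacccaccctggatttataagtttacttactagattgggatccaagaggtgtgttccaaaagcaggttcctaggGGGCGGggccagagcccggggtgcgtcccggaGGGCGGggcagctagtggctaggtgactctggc
Ptger2: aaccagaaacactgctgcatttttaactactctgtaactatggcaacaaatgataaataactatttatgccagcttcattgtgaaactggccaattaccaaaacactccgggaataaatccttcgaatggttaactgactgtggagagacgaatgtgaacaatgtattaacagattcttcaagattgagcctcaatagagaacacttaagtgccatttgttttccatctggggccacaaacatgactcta
Ptgs2: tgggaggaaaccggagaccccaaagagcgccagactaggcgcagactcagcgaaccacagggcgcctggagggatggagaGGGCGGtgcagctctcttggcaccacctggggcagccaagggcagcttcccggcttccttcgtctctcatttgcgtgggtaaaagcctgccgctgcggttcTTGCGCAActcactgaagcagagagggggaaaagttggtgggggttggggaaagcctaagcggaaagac

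The capitals are 1 GC box (GGGCGG, read as CCGCCC on the other strand) in Ltb4r1, a GATA motif (AGATAA) and a pair of GC boxes in Lpcat2, and a GC box and a C/EBP motif (TTGCGCAA) in Ptgs2. The Ptger2 window held none of the 9. Among 32851 promoters of the same length, 32.7% held the GC box, 9.99% the GATA motif and 0.164% the C/EBP motif. The other motifs searched were AP-1 (TGANTCA, 6.75%), the cyclic AMP response element (TGACGTCA, 1.55%), NF-kappa B (1.21%), the E-box (CACGTG, 6.02%), Blimp1 (0.207%) and a PPAR direct repeat (0.0335%), and their letters occur in none of these 4 windows. No motif searched was shared by all 4 windows, and a match describes letters only. Of the 10 members, 9 had a promoter in the RefSeq table; Alox5ap was not looked up elsewhere.

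Ltb4r1 (Entrez 16995, chromosome 14, 55765962 to 55768492) was the member with the highest level in male VAT Treg. It stood at 1096 and 845.4 CPM in males against 33.71 and 65.9 CPM in females, a log2 difference of 4.44. The Foxp3cre male VAT library, whose values were also known when the genes were chosen, held 812.3 CPM, close to the Foxp3RFP males. Spleen Treg ranged from 0 to 13.6 CPM in 8 libraries of both sexes and all genotypes, and reporter-negative VAT CD4 T cells had 6.179 and 14.48 CPM in females against 18.5 and 30.77 CPM in males. Among T cells, the 3 male VAT Treg libraries without the floxed allele thus lay far above all others.

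VAT ILC2 carried Ltb4r1 in both sexes, at 515 and 523.9 CPM in females against 435.1 and 746.2 CPM in males, and the sexes overlapped. Over the 22 groups the order ran from male VAT Treg (970.5 ± 176.9 CPM, SD, n = 2) through Foxp3cre VAT Treg and male ILC2 (590.6 ± 220.0, SD, n = 2) to female ILC2, whose libraries lay within the male ILC2 range. GP38- stroma of males followed with 101.2 and 118.7 CPM. Whole VAT held 1.345 to 3.058 CPM, subcutaneous fat and adipocytes at most 1.614 CPM. In bulk tissue, fewer cells of a type and less RNA per cell cannot be told apart.

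Lpcat2 (Entrez 270084, chromosome 8, 92855313 to 92919279) was also high in male VAT Treg. It was at 121.4 and 116 CPM in male VAT Treg and 108.4 CPM in Foxp3cre VAT Treg, against 3.337 and 9.508 CPM in females. Spleen Treg held 3.359 to 12.88 CPM and VAT CD4 T cells 1.03 to 15.31 CPM, which overlap the female VAT Treg. Its highest level was in ILC2, with 681 and 1252 CPM in females against 530.1 and 719 CPM in males. The ratio of Ltb4r1 to Lpcat2 counts was 9.02 and 7.29 in male, 10.1 and 6.93 in female and 7.5 in Foxp3cre VAT Treg, but 0.418 to 1.04 in ILC2. It was 3.09 and 13.6 in Blimp1fl/fl Foxp3cre VAT Treg and 2.01 to 8.71 in VAT CD4 T cells, so the ratio varied among T cells of fat, and all of these lay above ILC2. Lpcat2 overlaps Capns2, which reached at most 20.22 CPM in any library.

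**Figure D1:**
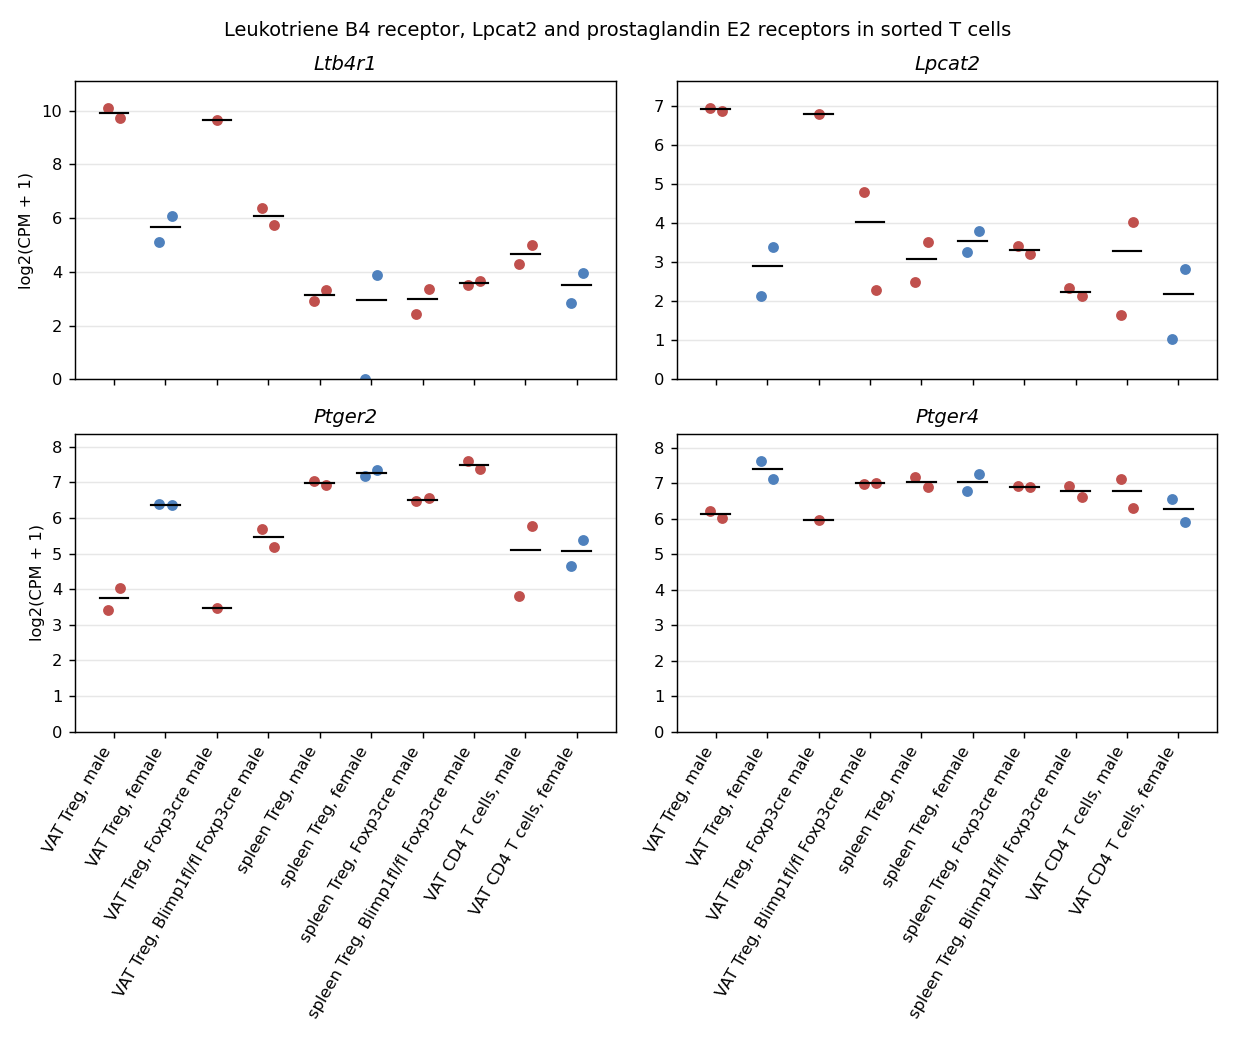
Levels of Ltb4r1, Lpcat2, Ptger2 and Ptger4 in 19 sorted T cell libraries, as log2(CPM + 1); each point is a library, black lines are group means, red is male and blue is female. For Ltb4r1 and Lpcat2 the 3 male VAT Treg libraries without the floxed allele lie above all other T cell libraries, and for Ptger2 the Foxp3RFP males (9.67 and 15.33 CPM) and Foxp3cre (10.01 CPM) lie lowest beside 1 VAT CD4 library (13.01 CPM).

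The genes that make leukotriene B4 differed less between the sexes in VAT Treg than its receptor. Their log2 differences were 1.45 for Alox5, 1.4 for Alox5ap and 0.48 for Lta4h, against 4.44 for Ltb4r1. Ltb4r1 was chosen with its difference in these libraries known, so nothing is read from this order. Alox5 was at 2.533 and 3.332 CPM in male against 0.6 and 1.778 CPM in female VAT Treg, at 5.25 CPM in Foxp3cre VAT Treg, and at 0 to 0.9361 CPM in VAT CD4 T cells. ILC2 held 352.8 and 452.2 CPM in females against 265.2 and 325.4 CPM in males, above every other library of the series, the next being male GP38- stroma at 14.63 CPM. The ratio of Ltb4r1 to Alox5 counts was 433 and 254 in male VAT Treg and 1.16 to 2.29 in ILC2. Male VAT Treg thus held receptor transcript with little 5-lipoxygenase transcript, and ILC2 held both.

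**Figure D2:**
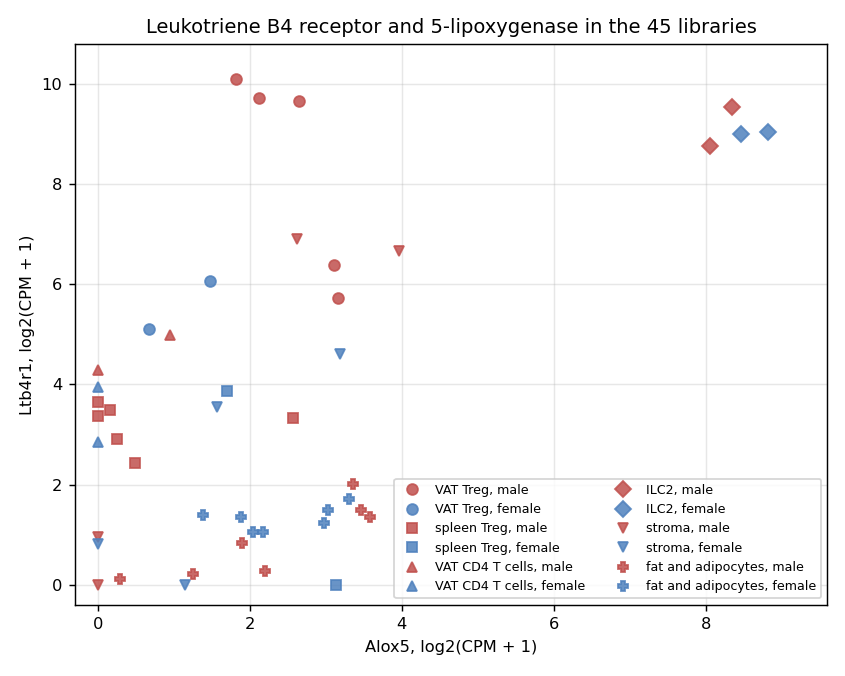
Ltb4r1 against Alox5 in the 45 libraries, both as log2(CPM + 1); symbols give the cell type or tissue, red male and blue female. The 4 ILC2 libraries lie high on both axes (Alox5 265.2 to 452.2 CPM), the 3 male VAT Treg libraries without the floxed allele lie high on Ltb4r1 with Alox5 at 2.533 to 5.25 CPM, and fat lies low on Ltb4r1.

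Alox5ap differed widely between libraries of the same T cell group. It was at 17.31 and 89.77 CPM in male against 5.512 and 38.54 CPM in female VAT Treg, and in each sex the second library was the higher one. Summed markers of macrophages and monocytes, which also express Alox5ap, were at 497.3 and 2265 CPM in the male and 143.6 and 1189 CPM in the female libraries in the same order. In VAT CD4 T cells, Alox5ap stood at 14.08 and 12.93 CPM in females against 32.04 and 170.2 CPM in males, and the last of these libraries held 4409 CPM of macrophage markers against 223.8 to 419.5 CPM in the other three. The part of other cells in these levels was not tested. ILC2, in contrast to their Alox5, had only 1.63 to 3.986 CPM of Alox5ap, the lowest group means of the series.

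Lta4h was present in every library, at 131.1 to 297.8 CPM in T cells, 130.5 to 288.3 CPM in ILC2, 103.9 to 125.5 CPM in stroma and 45.32 to 94.1 CPM in fat and adipocytes. Per gene length, on the deposited log2 FPKM scale, male VAT Treg averaged 9.5 for Ltb4r1, 6.99 for Lta4h, 5.70 for Alox5ap, 5.56 for Lpcat2 and -0.77 for Alox5. ILC2 of females averaged 8.66 for Ltb4r1, 8.48 for Lpcat2, 7.23 for Alox5, 6.94 for Lta4h and 2.24 for Alox5ap. By these means Ltb4r1 led in both cells, Lta4h lay high in both, and Alox5 and Alox5ap traded places between them. In the second female ILC2 library, however, Lpcat2 (8.81) lay above Ltb4r1 (8.62).

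**Figure D3:**
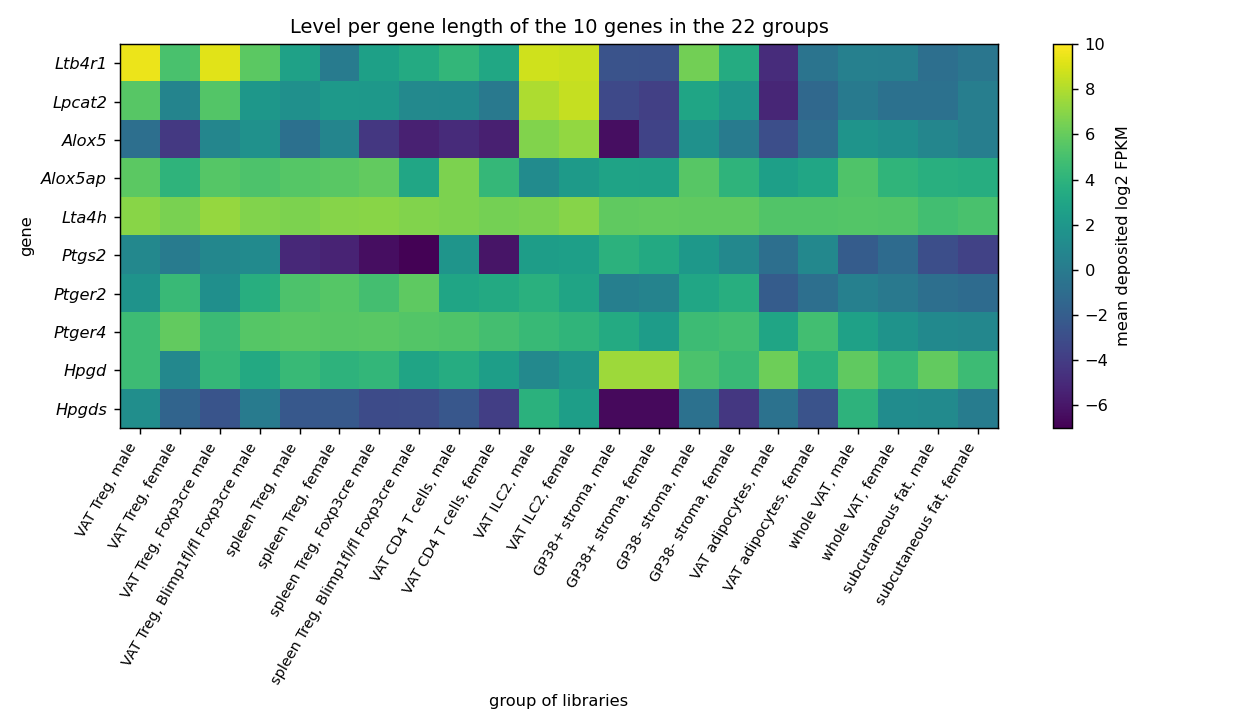
Mean deposited log2 FPKM, a level per gene length, of the 10 members (rows) in the 22 groups (columns). Ltb4r1 and Lpcat2 are bright in ILC2 and male VAT Treg, Alox5 in ILC2 (means 6.81 and 7.23), Hpgd in GP38+ stroma (means 7.53 and 7.54), and Lta4h is bright throughout.

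The prostaglandin E2 receptors ran the other way from Ltb4r1 in VAT Treg. Ptger2 (Entrez 19217, chromosome 14, 44988111 to 45003820) was at 82.54 and 80.7 CPM in female VAT Treg against 9.67 and 15.33 CPM in males, a log2 difference of -2.58, and 10.01 CPM in Foxp3cre VAT Treg. Spleen Treg held the most, 88.17 to 194.2 CPM in 8 libraries, and every one of them lay above every VAT Treg library. Ptger4 (Entrez 19219) was at 197.8 and 139.3 CPM in female against 73.68 and 63.72 CPM in male VAT Treg, a log2 difference of -1.16, with 60.99 CPM in Foxp3cre VAT Treg and 96.96 to 152 CPM in spleen. The count ratio of Ptger4 to Ptger2 was 7.62 and 4.16 in male and 6.09 in Foxp3cre VAT Treg, 2.4 and 1.73 in female VAT Treg and 0.59 to 1.36 in spleen, so among Treg the ratio was highest in these male VAT libraries. In VAT CD4 T cells it was 3.81 and 1.44 in females and 10.6 and 1.47 in males. The first male CD4 library thus lay above every Treg library.

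Of the other members, Ptgs2 was close in VAT Treg of both sexes (9.133 and 7.724 CPM in males, 5.662 and 6.339 CPM in females), Hpgd was at 33.27 and 46.19 CPM in males against 1.5 and 20.52 CPM in females, and Hpgds at 4.643 and 16.32 against 3.112 and 3.131 CPM. All 10 members except Alox5ap had sexes that did not overlap in VAT Treg, where 40.1% of 17340 genes had none; nothing is read from this, since these libraries chose the genes. The members' median log2 difference was 1.43, that of all genes -0.04 and that of the 48 other pathway genes 0.16. For the same reason, nothing is read from these medians.

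The ILC2 marker list was high in male VAT Treg too. Its 8 genes summed to 5536 to 7649 CPM in male and 5640 CPM in Foxp3cre VAT Treg and 5770 to 7720 CPM in ILC2, against 593.9 to 723.2 CPM in female VAT Treg. The T cell markers summed to 3918 to 4180 CPM in male VAT Treg and 286.4 to 367.9 CPM in ILC2, and Alox5 was near 0 in the Treg. Neutrophil markers summed to 544.3 to 554.7 CPM in male, 384.7 CPM in Foxp3cre and 40.87 to 167.4 CPM in female VAT Treg. Mast cell and eosinophil markers summed to 258.1 to 432.5, 286.9 and 34.42 to 55.35 CPM in the same order. B cell markers ran the other way between the sexes (453.7 to 1163 CPM in males against 1886 to 3141 CPM in females). The part of RNA of ILC2 or other cells in the Ltb4r1 level was not tested. The genes whose pattern over the 22 group means was most like Ltb4r1 were Klrg1 (Pearson r 0.96), Tmem64 (0.952), Pcsk1 (0.949) and Il1rl1 (0.94). For Lpcat2 they were Ccdc184 (0.946), Xlr4a (0.936), Dctn6 (0.934) and Crem (0.934); Klrg1 and the product of Il1rl1, ST2, were used to sort the ILC2, and the means share kits and depth by cell type.

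The first tested comparison set VAT against spleen Treg within male Foxp3cre mice. Ltb4r1 and Ptgs2 were called higher and Ptger2 lower, 3 of 10 members at an adjusted p under 0.05, where 2.70% of all genes were called higher and 2.22% lower; 5 members had an unadjusted p under 0.05. Ltb4r1 was at 812.3 CPM in VAT against 4.429 and 9.358 CPM in spleen, a log2 fold change of 6.76 (SE 1.12, adjusted p = 0.0012 by edgeR). Ptger2 was at 10.01 CPM against 88.17 and 92.92 CPM, a log2 fold change of -3.29 (SE 0.62, adjusted p = 0.00336). Both calls held in all 8 alternatives. The VAT group is 1 library, whose spread is taken to be that of the other T cell groups. Its values were known when the genes were chosen. The p-values and the share called here, and later where this library is compared, are therefore not independent of that choice.

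Ptgs2 was at 7.489 CPM in VAT and had no read in either spleen library, so it was at least 157-fold higher with the spleen group set to 3 counts in all (adjusted p = 0.0382). That call was lost in 4 of 8 alternatives, which included leaving out either spleen library, and its adjusted p reached 0.195. Lpcat2, at 108.4 CPM against 9.636 and 8.266 CPM, had a log2 fold change of 3.49 (SE 1.02) and an adjusted p of 0.0596, and DESeq2 called it. Over 8 spleen Treg libraries, Ptgs2 was at 0 in 7 and at 0.5579 CPM in the other. Fibroblast markers, which summed to 829.6 CPM in the Foxp3cre VAT library and 0.4831 to 2.924 CPM in its spleen counterparts, moved with these differences. So did ILC2 markers, at 5640 CPM against 167.3 and 192.2 CPM. B cell markers ran the other way, at 314.6 CPM in VAT against 2653 to 6229 CPM in spleen. Red blood cell markers did so too (130.8 against 816.8 to 6280 CPM). The part of any of these cells was not tested.

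Of the 48 other pathway genes tested there, 2 were higher and 1 lower. Tbxa2r, the thromboxane receptor, fell from 89.86 and 76.74 CPM in spleen to 15.88 CPM in VAT, a log2 fold change of -2.5 (SE 0.4, adjusted p = 0.000913). Dpep1, a dipeptidase that cleaves leukotriene D4, was at least 846-fold higher (adjusted p = 0.0112) and Slco2a1, a prostaglandin transporter, at least 213-fold higher (adjusted p = 0.0138), both with no read in the spleen libraries. Dpep1 also stood at 2571 to 3503 CPM in GP38+ fat stroma.

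The second comparison set VAT Treg labelled Blimp1fl/fl Foxp3cre against the Foxp3cre library. Ltb4r1 was at 82.63 and 52.24 CPM, Lpcat2 at 26.76 and 3.855 CPM, Ptger2 at 51.06 and 35.71 CPM, and Ptger4 at 126.1 and 127.9 CPM, each between the Foxp3cre and the female levels or within the latter. Alox5, at 7.625 and 7.908 CPM, lay above both, and Ptgs2, at 13.11 and 5.13 CPM, lay on either side of them. edgeR called 0 of 10 members, where 0.819% of genes were called, 5 had an unadjusted p under 0.05 and DESeq2 called 1, Ptger2. The log2 fold changes were -3.63 for Ltb4r1 (SE 1.00, adjusted p = 0.128) and 2.08 for Ptger2 (SE 0.58, adjusted p = 0.128).

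Lpcat2 gave -2.86 (SE 1.01, adjusted p = 0.309), its 2 libraries differing widely, and Ptger4 gave 1.03 (SE 0.38, adjusted p = 0.363). Ltb4r1 passed when low counts were not filtered, when only the compared groups entered the fit and when 4 T cell libraries rich in markers of other cells were left out, so its side of the threshold depends on those choices. ILC2 markers summed to 636.1 to 732.7 CPM in the Blimp1fl/fl Foxp3cre libraries against 5640 CPM in the Foxp3cre library. In the same order, fibroblast markers summed to 76.1 to 102.9 against 829.6 CPM and neutrophil markers to 61.79 to 76.61 against 384.7 CPM. Mast cell and eosinophil markers summed to 16.22 to 20.92 against 286.9 CPM. B cell markers (1028 to 1281 against 314.6 CPM) and macrophage markers (1022 to 1237 against 786.3 CPM) ran the other way. The part of these cells in these differences was not tested.

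In spleen Treg the same genotypes differed in 0 of 10 members by edgeR and by DESeq2, where 0.317% of genes were called, with 2 at an unadjusted p under 0.05. Alox5ap was at 9.297 and 2.322 CPM against 25.58 and 66.79 CPM (log2 fold change -3, SE 0.95, adjusted p = 0.356) and Ptger2 at 194.2 and 164.3 CPM against 88.17 and 92.92 CPM (0.97, SE 0.42, adjusted p = 0.739). Macrophage markers summed to 105.8 and 185.6 CPM against 343.7 and 695.9 CPM in these groups, neutrophil markers to 6.718 and 18.11 against 188.6 and 438.5 CPM, and B cell markers to 1360 and 1374 against 2653 and 6229 CPM, and their part was not tested. The genotype difference in VAT minus that in spleen gave 0 calls by both tools, against 0.358% of genes, and 2 members at an unadjusted p under 0.05, with Ltb4r1 at -4.25 (SE 1.33, adjusted p = 0.31).

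Within Blimp1fl/fl Foxp3cre mice, VAT against spleen Treg called Ptger2 lower, 1 of 10 members where 0.571% of genes were called lower, with 6 at an unadjusted p under 0.05. Its log2 fold change was -2.18 (SE 0.44, adjusted p = 0.0171), and leaving out any of the 4 libraries lost the call, with an adjusted p of up to 0.278. Ltb4r1, at 82.63 and 52.24 CPM against 10.29 and 11.51 CPM, had a log2 fold change of 2.5 (SE 0.89, adjusted p = 0.256). Ptgs2 had no read in spleen and 13.11 and 5.13 CPM in VAT. By the VAT mean it was at least 163-fold higher, with an adjusted p of 0.0772 by edgeR. Macrophage markers summed to 1022 to 1237 CPM in VAT against 105.8 to 185.6 CPM in spleen, ILC2 markers to 636.1 to 732.7 against 169.8 to 179.4 CPM, and fibroblast markers to 76.1 to 102.9 against 0.9597 to 1.235 CPM, and their part was not tested. Tbxa2r was lower here too (-1.21, SE 0.29, adjusted p = 0.0497), the only one of 48 other pathway genes called.

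Between the sexes, spleen Treg gave 0 calls of 10 by edgeR and by DESeq2, where 0.0750% of genes were called, and 0 members at an unadjusted p under 0.05. Ptger2 was at 145.2 and 161.7 CPM in females against 130.4 and 121.4 CPM in males, and Ptger4 overlapped. Ltb4r1 was at 0 and 13.6 CPM in females against 6.541 and 9.126 CPM in males. It became a call without the second female library, alone or among the 4 T cell libraries rich in markers of other cells. The female library that remained held no Ltb4r1 read. Reporter-negative VAT CD4 T cells gave 0 calls by edgeR, where 1.48% of genes were called, 2 members at an unadjusted p under 0.05 and 2 calls by DESeq2. These were Alox5ap (log2 fold change 2.83, SE 0.95, adjusted p = 0.161 by edgeR) and Ptgs2. The latter had no read in females and 5.045 and 34.39 CPM in males. By the male mean it was at least 153-fold higher (adjusted p = 0.0685 by edgeR), and the first male library lay well below that mean. The second male library held 1894 CPM of fibroblast markers and the female libraries 38.21 and 84.36 CPM, and the part of other cells was not tested. Neither Ltb4r1 nor Lpcat2 was called in CD4 T cells, with 1.19 (SE 0.88) and 1.25 (SE 0.9).

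ILC2 gave 0 calls of 10 between the sexes by edgeR and DESeq2, where 0.0375% of genes were called, and 1 member at an unadjusted p under 0.05. That was Hpgds, at 14.76 and 23.84 CPM in females and 43.25 CPM in both male libraries (log2 fold change 1.2, SE 0.46, adjusted p = 1). The log2 fold changes of Ltb4r1 (0.27, SE 0.42), Lpcat2 (-0.6, SE 0.47) and Alox5 (-0.39, SE 0.38) lay within the error of these libraries. Cysltr1, a cysteinyl leukotriene receptor, stood at 193.1 to 245.4 CPM in ILC2 and 22.94 and 25.94 CPM in male VAT Treg, so ILC2 held transcripts of receptors of both leukotriene classes.

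In whole VAT, Alox5ap, Ptger4, Hpgd and Hpgds were higher in males, 4 of 10 members where 8.39% of genes were called higher, and all 4 calls held in all 11 alternatives. Hpgds (Entrez 54486) was at 52, 46.83 and 59.18 CPM in males against 5.546, 10.56 and 8.517 CPM in females (log2 fold change 2.66, SE 0.27, adjusted p = 2.24e-05). Hpgd (Entrez 15446) was at 105.1, 84.37 and 108.2 CPM against 30.35, 46.17 and 32.78 CPM (1.42, SE 0.23, adjusted p = 0.00102). In neither gene did the sexes overlap. Transcripts of an enzyme that makes prostaglandin D2 and of the one that inactivates prostaglandin E2 were thus both higher in male VAT.

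Alox5ap was at 32.46, 37.35 and 33.5 CPM in males against 15.91, 15.43 and 11.63 CPM in females (1.23, SE 0.23, adjusted p = 0.00323). Ptger4 was at 19.7, 18.04 and 21.08 CPM against 7.266, 10.79 and 11.12 CPM (0.99, SE 0.20, adjusted p = 0.00454), the reverse of its order in VAT Treg. Ptger2 (0.60, SE 0.22, adjusted p = 0.104) did not pass by edgeR and passed by DESeq2. Markers of macrophages and monocytes summed to 2339 to 2629 CPM in male against 780.1 to 870.9 CPM in female VAT, and their part in these differences was not tested.

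Of the 48 other pathway genes tested in whole VAT, 5 were higher and 5 lower in males. Dpep2, another dipeptidase, was at 28.64 to 31.95 CPM in males against 2.929 to 4.578 CPM in females (2.99, SE 0.25, adjusted p = 5.58e-06). Pla2g7, which degrades platelet-activating factor (1.74, SE 0.16, adjusted p = 9.97e-06), and Tbxas1, thromboxane synthase (1.84, SE 0.20, adjusted p = 4.94e-05), were higher too. The median log2 fold change was 0.65 over the members and -0.03 over all genes.

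**Figure D4:**
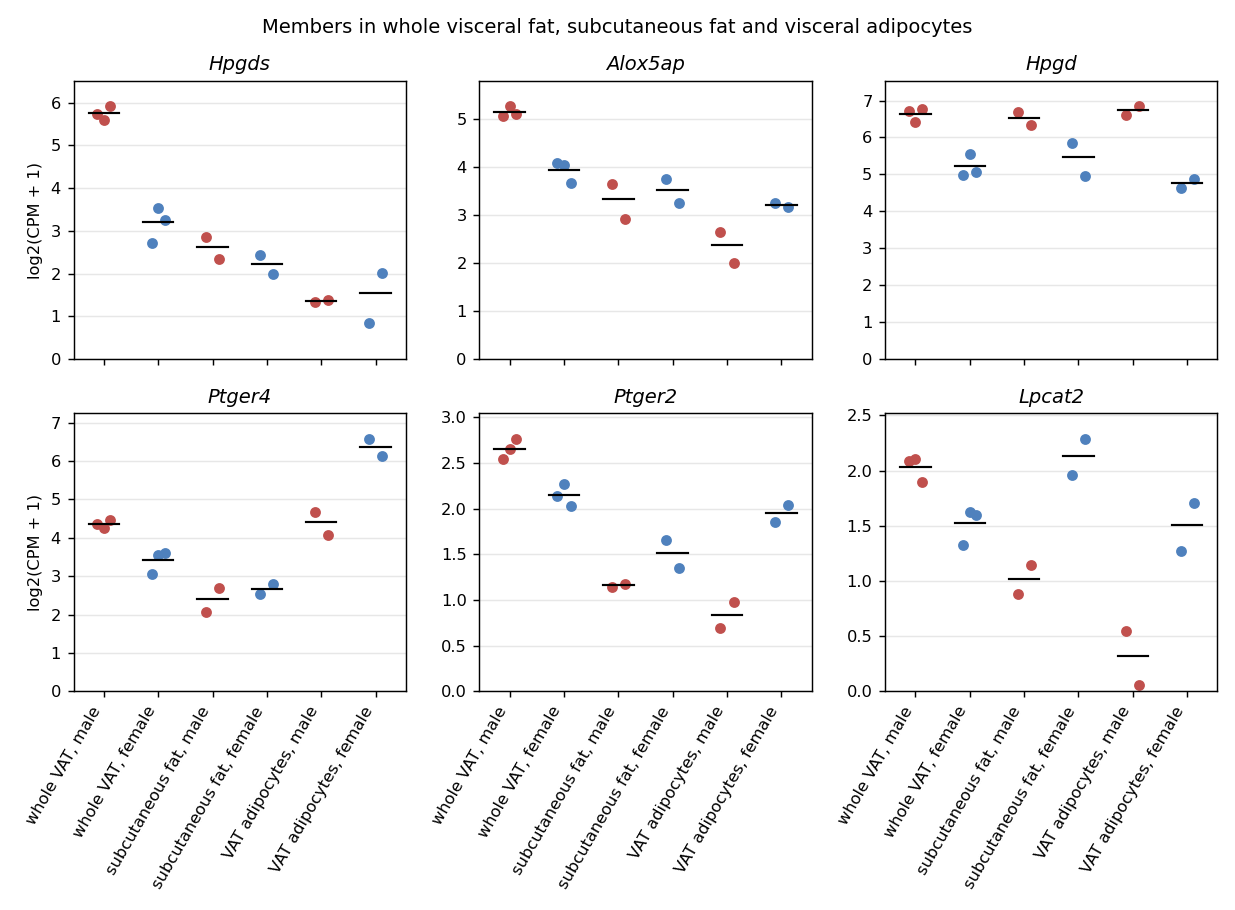
Hpgds, Alox5ap, Hpgd, Ptger4, Ptger2 and Lpcat2 in whole VAT, subcutaneous fat and VAT adipocytes, as log2(CPM + 1); each point is a library, black lines are group means, red is male and blue is female. Hpgds stands apart in male whole VAT (46.83 to 59.18 CPM), Hpgd is higher in males in all 3 tissues, and Ptger4 is highest in female adipocytes (94.83 and 68.52 CPM).

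Subcutaneous fat gave 1 member higher and 1 lower in males, where 7.09% of genes were called higher and 9.43% lower. Hpgd was at 101.7 and 79.41 CPM in males against 57.2 and 29.88 CPM in females (1.27, SE 0.28, adjusted p = 0.00828), lost in 3 of 9 alternatives. Lpcat2 was at 0.8395 and 1.214 CPM in males against 2.888 and 3.889 CPM in females (-1.49, SE 0.45, adjusted p = 0.0376), lost in 6 of 9, each single left-out library among them. The summed level of mast cell and eosinophil markers was 49.8 to 83.44 CPM in females against 19.81 to 19.91 CPM in males. ILC2 markers summed to 44.52 to 130.8 CPM in females against 16.55 to 26.8 CPM in males, and mesothelium markers to 145.8 to 397.5 against 1.981 to 3.643 CPM. The part of these cells was not tested. Of the other 48 pathway genes, 5 were higher and 8 lower. They included Ggt1, a glutamyl transferase that acts on leukotriene C4, at least 116-fold lower in males, where it had no read (adjusted p = 0.000295), Ptges2 (0.83, SE 0.12, adjusted p = 0.000556) and Slco2a1 (-3.67, SE 0.57, adjusted p = 0.000966).

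The sex difference in whole VAT minus that in subcutaneous fat was called in 4 members, all higher, where 9.87% of genes were called higher. Hpgds gave 1.98 (SE 0.43, adjusted p = 0.00825) and Lpcat2 gave 2.2 (SE 0.57, adjusted p = 0.0195), since Lpcat2 was at 2.735 to 3.305 CPM in male against 1.502 to 2.086 CPM in female VAT but lower in males under the skin. Alox5ap (1.22, SE 0.38, adjusted p = 0.0429) and Ptger4 (1.09, SE 0.33, adjusted p = 0.0414) each lost the call in 8 of 15 alternatives. Hpgd, higher in males in both depots, was not called in this contrast. Among the other pathway genes, 9 were higher and 2 lower, with Dpep2 at 3.39 (SE 0.4, adjusted p = 0.000196).

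With the sexes averaged, 8 of 10 members were higher in whole VAT than in subcutaneous fat, where 26.7% of genes were called higher. The log2 fold changes of the 8 ran from 0.40 for Lta4h (SE 0.08, adjusted p = 0.000734) to 2.12 for Ptgs2 (SE 0.6, adjusted p = 0.00938). Hpgds gave 2.08 (SE 0.23, adjusted p = 8.72e-06), Ltb4r1 1.31 (SE 0.34, adjusted p = 0.00612) and Alox5 1.27 (SE 0.25, adjusted p = 0.000984). Lpcat2 and Hpgd were not called. Macrophage markers summed to 780.1 to 2629 CPM in whole VAT against 346.5 to 657.1 CPM in subcutaneous fat, and dendritic cell markers to 39.24 to 176.9 against 19.78 to 27.48 CPM, and their part was not tested. The members' median was 1.29 against 0.03 over all genes and 0.15 over the other pathway genes, of which 16 were higher and 9 lower, led by Ptges2 (-1.08, SE 0.08), Tbxas1 (2.16, SE 0.18) and Cbr1, a carbonyl reductase (-0.83, SE 0.07).

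In VAT adipocytes the members' sex calls stood on a high background, with 1 higher and 5 lower in males, where 14.5% and 20.8% of genes were called. Hpgd was at 96.67 and 113.9 CPM in males against 23.61 and 28.56 CPM in females (2.18, SE 0.31, adjusted p = 0.000163). Ptger4 was at 24.4 and 15.95 CPM in males against 94.83 and 68.52 CPM in females (-1.83, SE 0.25, adjusted p = 0.000131). Transcripts of the receptor and of the enzyme that inactivates its ligand thus differed in opposite directions, with no overlap in either.

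Ptger2 (-1.65, SE 0.35, adjusted p = 0.00277), Lpcat2 (-3.01, SE 0.64, adjusted p = 0.00278), Ltb4r1 (-3.57, SE 0.76, adjusted p = 0.00296) and Alox5 (-1.55, SE 0.55, adjusted p = 0.0443) were lower in male adipocytes, all at low levels. Ltb4r1 had 2 reads in each male library, and no level of these 4 exceeded 3.107 CPM in either sex. Alox5 lost the call without the second female or the second male library and when only the compared groups entered the fit, and Lpcat2 without the second female library, where its adjusted p was 0.0569. Ptgs2 ranged from 0.7451 to 19.65 CPM and did not pass (-2.01, adjusted p = 0.0582). It was called in 5 of 9 alternatives, DESeq2 and leaving out the first female or the first male library among them, with log2 fold changes from -3.84 to -0.38.

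Markers moved with sex in the adipocyte libraries. Endothelial markers summed to 2422 to 2566 CPM in females against 554.1 to 570.1 CPM in males, fibroblast markers to 2247 to 3085 against 1201 to 1439 CPM, macrophage markers to 328.9 to 439.2 against 155.2 to 206.5 CPM, and adipocyte markers to 15180 to 16700 against 22860 to 23040 CPM. Their part in the members' differences was not tested. Of the 48 other pathway genes, 11 were higher and 18 lower. Ptgs1, the constitutive cyclooxygenase (-3.18, SE 0.29, adjusted p = 1.07e-05), Dpep1 (-2, SE 0.20, adjusted p = 1.55e-05) and Cysltr1 (-3.48, SE 0.35, adjusted p = 1.86e-05) had the smallest adjusted p.

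Against whole VAT, with the sexes averaged, adipocytes had 2 members higher and 6 lower, where 25.7% and 24.8% of genes were called. Ptger4 was higher (1.80, SE 0.15, adjusted p = 1.32e-06), and its adipocyte libraries of 15.95 to 94.83 CPM overlapped the whole VAT range of 7.266 to 21.08 CPM only through 1 male library. Ptgs2 was higher too (2.15, SE 0.49, adjusted p = 0.00255), a call lost without the second female or the first male adipocyte library. Hpgds fell most (-3.16, SE 0.28, adjusted p = 1.46e-06), followed by Alox5 (-2.53, SE 0.31), Ltb4r1 (-1.95, SE 0.44), Alox5ap (-1.7, SE 0.22), Lpcat2 (-1.66, SE 0.37) and Ptger2 (-1.21, SE 0.21). Lta4h (0.11) and Hpgd did not pass (0.07, SE 0.19). By sex, Ptger4 overlapped between the tissues in males. Ltb4r1 (1.553 and 1.614 CPM in adipocytes against 1.345 to 2.268 CPM) and Lpcat2 (1.412 and 2.27 against 1.502 to 2.086 CPM) overlapped in females. The averaged differences of these genes therefore came mainly from the sex without overlap. Macrophage markers summed to 155.2 to 439.2 CPM in adipocytes against 780.1 to 2629 CPM in whole VAT, and their part was not tested. The count ratio of Ptger4 to Ptger2 was 16.5 to 39.8 in adipocytes. Among the other pathway genes 12 were higher and 16 lower, led by Dpep1 (-2.14, SE 0.13), Pla2g7 (-1.7, SE 0.14) and Tbxas1 (-1.99, SE 0.19).

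In VAT stroma the members split by GP38. GP38+ cells include fibroblasts and preadipocytes. With the sexes averaged, they had 2 members higher and 6 lower than GP38- cells, where 19.3% and 22.8% of genes were called. The median over all genes was -0.14. Hpgd was at 247.5, 346.8, 322.3 and 299.9 CPM in GP38+ and 31.46 to 67.7 CPM in GP38- stroma (2.85, SE 0.21, adjusted p = 8.72e-05), the highest Hpgd of the series. Ptgs2 was at 33.15 to 59.24 CPM against 5.05 to 23.5 CPM (1.84, SE 0.41, adjusted p = 0.011), also the highest group means of the series. Neither gene overlapped between the fractions.

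Ptger2, Ptger4, Ltb4r1, Lpcat2, Alox5 and Alox5ap were higher in GP38- stroma, while Lta4h was not called (0.13, SE 0.12, adjusted p = 0.426). Ptger2 was at 2.492 to 6.403 CPM in GP38+ against 30 to 61.24 CPM (-3.14, SE 0.40, adjusted p = 0.000932) and Ptger4 at 10.38 to 40.79 against 65.36 to 110 CPM (-1.88, SE 0.35, adjusted p = 0.00478). Ltb4r1 was at 0 to 0.9403 CPM against 10.78 to 118.7 CPM (-6.38, SE 1.23, adjusted p = 0.00574), and Alox5ap gave -2.11 (SE 0.54, adjusted p = 0.019), lost in 2 of 12 alternatives. Alox5 (adjusted p = 0.0332), with reads in 1 of 4 GP38+ libraries, and Lpcat2 (-4.65, SE 1.54, adjusted p = 0.0475) lost the call in 6 and in 5 of 12 alternatives. Hpgds had no read in the 4 GP38+ libraries and 0 to 4.3 CPM in GP38- stroma (adjusted p = 0.0573).

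T cell markers summed to 0.4254 to 3.771 CPM in GP38+ stroma, with 4 to 6 of 7 genes at 0, but to 285.7 and 297.9 CPM in female against 904.9 and 1014 CPM in male GP38- stroma. Macrophage markers summed to 53.72 to 158.1 CPM in GP38+ and 455.2 to 1082 CPM in GP38- stroma. For NK cell markers the sums were 0.1823 to 3.34 and 270.3 to 344.4 CPM, and for adipocyte markers 14.53 to 47.58 and 1975 to 5096 CPM. Ltb4r1 was at 23.25 and 10.78 CPM in female against 101.2 and 118.7 CPM in male GP38- stroma. T cell markers had that order, as did neutrophil markers (35.41 to 65.28 against 230.2 to 338.3 CPM). So did conventional CD4 T cell markers (115.7 to 152.5 against 383.4 to 714.3 CPM), ILC2 markers (136.7 to 203 against 240.3 to 277.3 CPM) and macrophage markers. Adipocyte markers shared that order (1975 to 2212 against 3221 to 5096 CPM). Mural cell markers ran the other way (1383 to 1512 against 446.7 to 460.6 CPM). The part of these cells in the members' differences was not tested. Of 46 other pathway genes tested, 11 were higher and 10 lower in GP38+ stroma, led by Dpep1 (4.76, SE 0.15), Mgll, a monoacylglycerol lipase (-4.2, SE 0.22), and Cmklr1, a chemerin and resolvin receptor (5.24, SE 0.29).

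**Figure D5:**
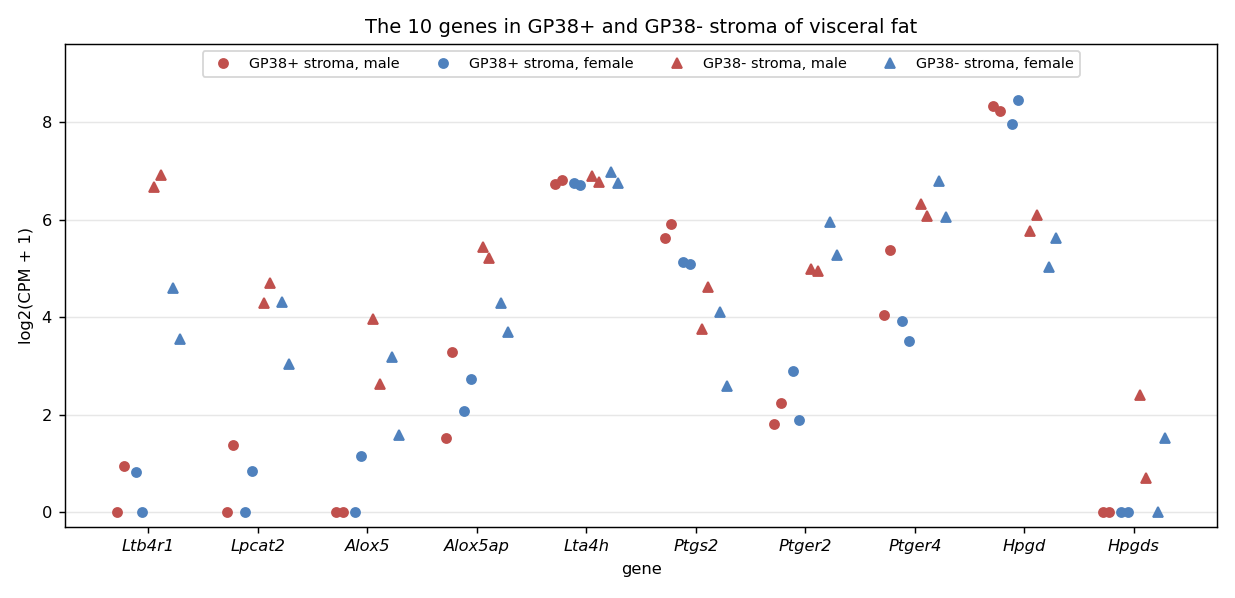
The 10 members in 8 stroma libraries, as log2(CPM + 1); circles are GP38+, triangles GP38-, red male and blue female. Hpgd and Ptgs2 lie higher in GP38+ stroma (Hpgd 247.5 to 346.8 CPM), Lta4h does not separate, and the other members lie higher in GP38- stroma or at 0 in GP38+ libraries.

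Between the sexes, GP38+ stroma gave 0 calls of 10 (0.335% of genes called) with 1 member, Ptger4, at an unadjusted p under 0.05, and GP38- stroma gave 0 (0.890% of genes) with 1, Hpgd. The difference between these sex differences also gave 0 calls (0.213% of genes) with 0 at an unadjusted p under 0.05. DESeq2 made 0 calls in all 3, as did edgeR. Ltb4r1 in GP38- stroma had a log2 fold change of 2.76 (SE 1.43, adjusted p = 0.405), so at this number of libraries a difference of that size was within the error. The prostacyclin receptor Ptgir was the only other pathway gene called there (-2.14, SE 0.28, adjusted p = 0.0335).

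Genes closest in pattern to the other members over the 22 group means were Fos (r 0.883), Sgk1 (0.871), Phlda1 (0.858) and Fosb (0.822) for Ptgs2. For Hpgd they were Snx24 (0.94), Fuca1 (0.922), Tnfaip2 (0.901) and Spns1 (0.894), and for Hpgds C5ar2 (0.919), Lilr4b (0.869) and Osbpl8 (0.858). Hpgd was high in GP38+ stroma, then in male adipocytes, whole VAT and subcutaneous fat (means 105.3 ± 12.16, 99.22 ± 12.96 and 90.55 ± 15.74 CPM, SD, n = 2, 3 and 2), which overlapped among themselves. Hpgds was highest in male whole VAT (52.67 ± 6.204 CPM, SD, n = 3) and next in male ILC2 (43.25 CPM in both), with 0.8071 to 3.047 CPM in adipocytes.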

How the data were processed

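The authors deposited a count table of whole reads per gene by Entrez identifier and a file of log2 FPKM values per library; per the submitters' processing notes the tools and builds include Subread 1.6.2, featureCounts, limma, GRCm38 and mm10. No source used here gives the annotation, the strand setting or the FPKM normalization. In the count table, 6 columns matched no sample and were not used. Deposited counts were tested with edgeR 4.0.16 in R 4.3.3 (quasi-likelihood F-test, two-sided, TMM, filterByExpr by group, Benjamini-Hochberg over all genes), in 4 fits over 19 T cell, 14 fat, 8 stroma and 4 ILC2 libraries, each with a mean per group. An adjusted p under 0.05 is a call, and all 10 members passed the filter in each fit. Positive log2 fold changes are higher in the first-named group or in males; the SE is that of the fit. CPM are over all counts of a library, without TMM. The deposited log2 FPKM were used only for levels between genes. Bounds against a group without reads use 3 counts and cover counting error only. The fits were tested on simulated data.

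Members, pathway lists (63 genes with the members), marker lists and tests were chosen with earlier results of these data known. Named genes are the 10 members, up to 3 called pathway genes per comparison by adjusted p, and the 4 genes with the highest Pearson r of log2(CPM + 1) to each of 5 members among 13639 genes with 5 CPM or more in a group mean, 1 of which is not reported here; Cysltr1 in ILC2 and Dpep1 in stroma were added after their values were seen, as was the GC box. Replicate libraries are separate pools where the labels say so, and nothing names shared animals, so p-values measure the spread between pools. No library pair agreed within sampling noise. Reads from Alox5 or Lpcat2 and overlapping genes cannot be told apart without strand. Alternatives were DESeq2 1.42.0, its size factors, no filter, only the compared groups, a replicate block, each library left out and, chosen after seeing the data, 4 T cell libraries left out. Promoters are from RefSeq.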

Additional observations from a re-analysis of the deposited data

Results flagged for a closer look

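The sex difference of 4 members differed between whole VAT and subcutaneous fat by the interaction term of the edgeR fit. The difference, male minus female in VAT less the same under the skin, was 2.2 on the log2 scale for Lpcat2, 1.98 for Hpgds, 1.22 for Alox5ap and 1.09 for Ptger4. Hpgds lost the call without the first female subcutaneous library (adjusted p = 0.0517), and Lpcat2 without the second female or the first male subcutaneous library. Their cause was not tested.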

How the results depend on the processing

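The calls of Ltb4r1 and Ptger2 in Foxp3cre VAT against spleen Treg and of Alox5ap, Ptger4, Hpgd and Hpgds in whole VAT between the sexes held in every alternative run for them. For the count of 10 members called, the following moved by over 1.5 times, or ranged that far with a library left out, from the reported value. Smaller moves included those to 4 by DESeq2 or without the filter and to 2 with the replicate block in Foxp3cre VAT against spleen Treg (reported 3), and to 5 by DESeq2 and 6 with only the groups compared in whole VAT (reported 4). In adipocytes between the sexes the count was 7 by DESeq2, without the filter and with the block, and 4 to 8 with a library left out (reported 6). Without the 4 T cell libraries highest in markers of other cells it was 1 for spleen Treg between the sexes (reported 0) and 1 for CD4 T cells (reported 0, DESeq2 2, no filter 2). For Blimp1fl/fl Foxp3cre against Foxp3cre VAT Treg (reported 0) it was 1 by DESeq2, 2 with no filter, 1 with only the groups compared and 2 without the 4 libraries. For VAT against spleen Treg in Blimp1fl/fl Foxp3cre mice (reported 1) it was 3, 2, 4 and 3 under these settings, and for the genotype difference in VAT minus spleen (reported 0) 1 with no filter, 1 with only the groups compared and 1 without the 4 libraries. For subcutaneous fat (reported 2) it was 0 with only the groups compared and 1 with the replicate block. With 1 library left out at a time, the counts ranged from 0 to 1 in spleen Treg and in CD4 T cells between the sexes, were 0 in VAT against spleen Treg of Blimp1fl/fl Foxp3cre mice, and ranged from 0 to 2 in subcutaneous fat, 1 to 4 in the VAT minus subcutaneous contrast and 5 to 8 in GP38+ against GP38- stroma. Lpcat2 reversed in Blimp1fl/fl Foxp3cre VAT against spleen Treg, from 1.91 to -0.07, without the first VAT library, and was 2.74 without the second (adjusted p = 0.353); neither value passed. The replicate block also took the calls of Ptgs2 in Foxp3cre VAT against spleen Treg, Alox5 in GP38+ stroma and Ptger4 in the VAT minus subcutaneous contrast, and added Alox5ap in adipocytes between the sexes. Same-numbered libraries did not deviate together in every comparison (correlations from -0.1 to 0.39), so the numbers were not taken as pairs. Over all genes, DESeq2 called 1995 against 853 by edgeR in Foxp3cre VAT against spleen Treg, 601 against 142 between the VAT genotypes, 310 against 13 and 1231 against 256 between the sexes in spleen Treg and CD4 T cells, 76 against 5 in ILC2, and 571 against 55 and 1515 against 146 in GP38+ and GP38- stroma; with the block the last was 7. The Foxp3cre VAT library could not be left out, being the only one of its group. Except where noted, the cause was not tested. With 2 libraries in most groups, differences of about 1 on the log2 scale were often within the error in T cells, stroma and ILC2. Larger ones also went uncalled, such as -3 for Alox5ap between the spleen Treg genotypes and 2.76 for Ltb4r1 between the sexes in GP38- stroma. The absence of a call therefore sets no small limit on a difference, and levels near 1 CPM rest on few reads.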
